A study of Homo sapiens with 6 samples.

Results

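The genes examined are 10 members of the fibroblast growth factor (FGF) family, chosen by symbol from the 23290 genes of the deposited table: the ligand genes FGF1, FGF2, FGF5, FGF7 and FGF18, the receptor genes FGFR1, FGFR2, FGFR3 and FGFR4, and FGFRL1. All 10 symbols were found. RNA came from U87, an established human glioblastoma line kept in DMEM with 10% FBS, after infection with a retroviral shC8 vector that silences Caspase-8 (shC8, 3 libraries) or with the retroviral scramble vector (shCTR, 3 libraries). The control cells thus went through retroviral infection as well, while the sources used here give neither the hairpin sequence nor any selection of clones. Samples within a group are described by the submitters as biological replicates, but not whether each had its own culture or infection, so p-values describe the spread between these libraries, which may be technical. The comparison asks which members of the family differ in RNA level when Caspase-8, the initiator protease of death receptor signalling, is reduced.

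Most FGFs are secreted proteins that bind FGF receptors, tyrosine kinases of the cell surface. Heparan sulfate chains on neighbouring proteins hold ligand and receptor together. Bound receptors signal through adaptor proteins to RAS and ERK, and ERK activity induces genes that damp the same pathway. FGF2 is known as a mitogen of glioma cells and as an angiogenic factor, FGFR1 as a receptor that binds it, and FGFRL1 as a receptor-like protein without a kinase domain.

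Values were FPKM, that is, fragments scaled by transcript length and by the number of mapped fragments, as the authors deposited them. The scale divides by transcript length, so levels of different genes can be set side by side. The FPKM of a library summed to between 489055 and 516634. No read totals were used, but the step size of low values put the other 5 libraries at 1.09 to 1.21 times the depth of shCTR 1. CASP8, the silenced gene, stood at 4.39, 4.46 and 4.44 FPKM in shC8 1, 2 and 3, against 15.1, 14.9 and 13.4 FPKM in shCTR 1, 2 and 3, so every shC8 library was below every shCTR library. The label of a glioblastoma line was read against 11 astrocyte and glioma markers, of which 5 had a mean of at least 1 FPKM, 2 were called higher and 2 lower. Their sum was 3917 to 4182 FPKM in shC8 and 4203 to 5103 FPKM in shCTR. VIM, the mesenchymal filament gene, was at 3640 to 3862 FPKM in shC8 and 3806 to 4713 FPKM in shCTR, while the astrocyte genes GFAP (at most 0.297 FPKM in any library) and AQP4 (listed at 0 in all 6) were nearly absent. The glutamate transporter gene SLC1A3, another astrocyte gene, was at 4.68 to 6.19 FPKM in shC8 and 8.97 to 11.9 FPKM in shCTR (limma adjusted p = 0.00779), and CD44 was called lower as well. NES, an intermediate filament gene of neural progenitors, was at 9.30 to 12.2 FPKM in shC8 and 5.80 to 8.0 FPKM in shCTR (limma adjusted p = 0.0293), and the transcription factor gene SOX9 at 8.99 to 10.8 FPKM in shC8 and 6.73 to 7.80 FPKM in shCTR (limma adjusted p = 0.0411). The part of these markers in the results on FGF genes was not tested. Of 8 endothelial markers, only KDR had a mean of at least 1 FPKM (called lower in the fit with a replicate block alone, limma adjusted p = 0.0199), and their sum was 1.91 to 2.29 FPKM in shC8 and 2.54 to 2.85 FPKM in shCTR. Of 8 epithelial markers, whose sum was 3.18 to 4.34 FPKM in shC8 and 2.54 to 2.75 FPKM in shCTR, 1 was called higher (KRT18). Of 8 leukocyte markers, CD68, the lysosomal protein gene, held almost the whole sum (137 to 153 FPKM in shC8 and 150 to 158 FPKM in shCTR), while CD3E, AIF1 and TYROBP were listed at 0 throughout. Of 7 neuronal markers, with TUBB3 as the highest, none was called without a block and SYT1 was called higher with it (limma adjusted p = 0.0418), and their sum was 111 to 119 FPKM in shC8 and 91.0 to 115 FPKM in shCTR. In RNA from whole cultures, fewer cells of a kind and less RNA per cell cannot be told apart.

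The family was read out through a few genes. FGF2 was the highest member in both groups, FGFR1 came next, and FGFR1 made up nearly the whole of the summed FPKM of FGFR1 to FGFR4. In shC8 the order of mean levels was FGF2 (32.0 ± 3.38 FPKM), FGFR1 (26.2 ± 0.523), FGFRL1 (11.8 ± 1.80), FGF1 (6.47 ± 1.08), FGF5 (6.21 ± 2.16), FGF7 (2.75 ± 1.98) and FGF18 (0.789 ± 0.257; SD, n = 3). In shCTR it was FGF2 (82.5 ± 22.4 FPKM), FGFR1 (24.9 ± 0.710), FGFRL1 (9.0 ± 0.857), FGF7 (7.76 ± 5.76), FGF1 (3.99 ± 1.29), FGF5 (3.94 ± 0.974) and FGF18 (0.625 ± 0.265; SD, n = 3). FGF1 and FGF5 did not differ beyond their spread in either group. FGFRL1 and FGF7 overlapped within shCTR, where shCTR 2 was far above the others for FGF7. FGFR2, FGFR3 and FGFR4 stayed under 0.06 FPKM in each library.

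**Figure D1:**
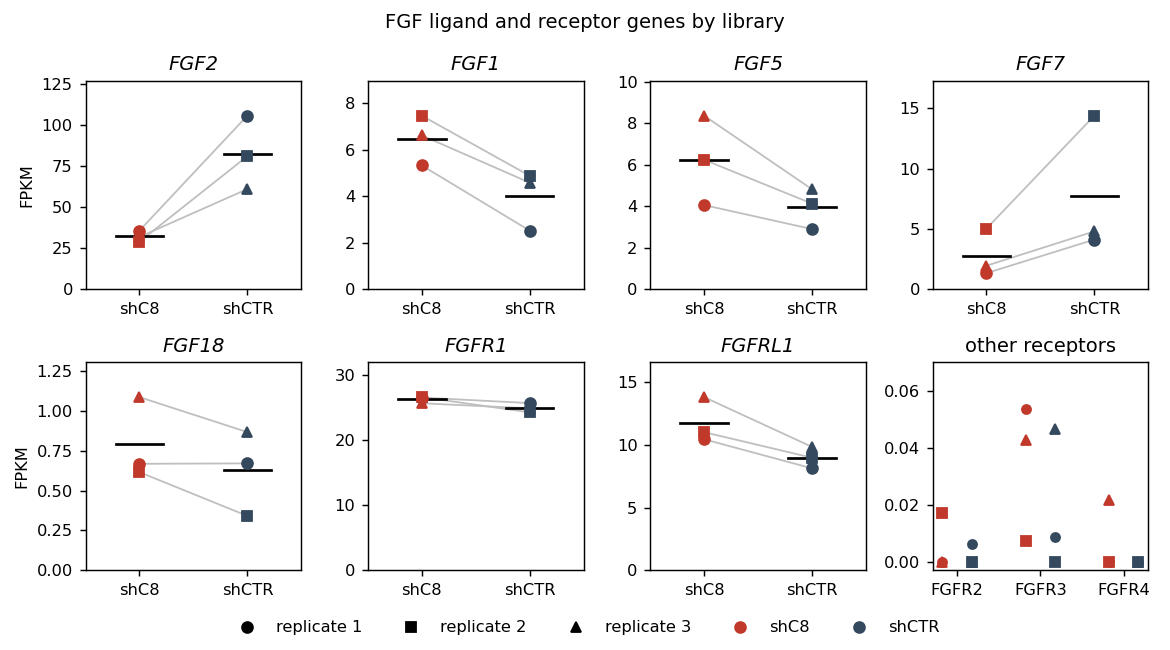
FPKM (y axis, from 0 except in the last panel) of the 10 FGF genes in the shC8 and shCTR libraries. Each marker is 1 library, its shape is the replicate number, black bars are group means and grey lines join same-numbered libraries (neither is drawn in the last panel). FGF2 lies between 28.8 and 35.6 FPKM in shC8 and between 60.9 and 106 FPKM in shCTR.

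FGF2 fell in shC8, and it was the only one of the 6 tested members to pass the test, which 12.1% of all tested genes did. It stood at 35.6, 28.8 and 31.7 FPKM in shC8 1, 2 and 3, against 106, 80.9 and 60.9 FPKM in shCTR 1, 2 and 3. The groups did not overlap, and the control libraries differed among themselves more than the shC8 libraries did. The mean was 2.57-fold lower in shC8, with a change of -1.31 on the log2(FPKM + 1) scale (SE 0.184, limma adjusted p = 0.00739), the 42nd largest fall among 11598 tested genes. FGF2 was lower in 3 of 3 same-numbered pairs, as it would be under any pairing of groups that do not overlap. In the fit with the replicate number as a block the adjusted p was 0.0023 (limma). Among all genes of the table, FGF2 ranked at the 87 to 88.7 percentile in shC8 libraries and at the 93.7 to 96.6 percentile in shCTR libraries.

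Of all tested genes, 7.14% were called higher and 4.94% lower in shC8 (adjusted p under 0.05). The other 4 members did not reach a mean of 1 FPKM over the 6 libraries and were not tested in that fit. The median log2 change was 0.21 over the 6 tested members and 0.04 over all tested genes. FPKM values of 3 tested members, FGF2, FGF1 and FGFRL1, did not overlap between the groups, as was the case for 34.8% of all tested genes.

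FGF2 (ENSG00000138685) lies at chr4:122826708-122898236 on the plus strand of GRCh38. Its longest transcript, FGF2-201, has 3 exons and 6775 bases, of which 5840, or 86.2%, are 3' UTR in the last exon (chr4:122892397-122898236). NUDT6, a Nudix hydrolase gene also known as the antisense gene of FGF2, lies on the minus strand at chr4:122888697-122922968. Of 1169 bases of the transcript NUDT6-201, 637 (54.5%) lie opposite the FGF2 3' UTR, in exons 4 and 5, while exons 1 to 3 are clear of it. Over the exons of all annotated transcripts the part is smaller. There the 2 genes share 804 bases, 12.2% of the exonic bases of NUDT6 and 11.9% of those of FGF2. The 30 bases at the start of NUDT6 exon 4, at chr4:122897649-122897678, show the pairing, each strand written 5' to 3' and each the reverse complement of the other, from the GENCODE 29 transcript sequences.
FGF2-201, plus strand: gcctcctggaaacttccacatatttttcaa
NUDT6-201, minus strand: ttgaaaaatatgtggaagtttccaggaggc

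NUDT6 fell together with FGF2. It stood at 21.6, 18.4 and 19.3 FPKM in shC8 1, 2 and 3, against 44.3, 37.4 and 28.8 FPKM in shCTR 1, 2 and 3. The groups did not overlap, and the 6 libraries came in the same order for NUDT6 as for FGF2, with shCTR 1 highest and shC8 2 lowest. Its log2 change was -0.85 (SE 0.147, limma adjusted p = 0.0138). Without shC8 2 or shC8 3 it lost the call, with limma adjusted p up to 0.0533. FGF2 exceeded NUDT6 by 1.62 ± 0.0414 times in shC8 and by 2.22 ± 0.143 times in shCTR (ratio of FPKM, SD, n = 3 each), and the 2 sets of ratios did not overlap. The library kit kept strand, but the sources used here do not say whether counting made use of it. If it did not, reads of the shared bases cannot be told apart, and their part in either value was not tested.

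**Figure D2:**
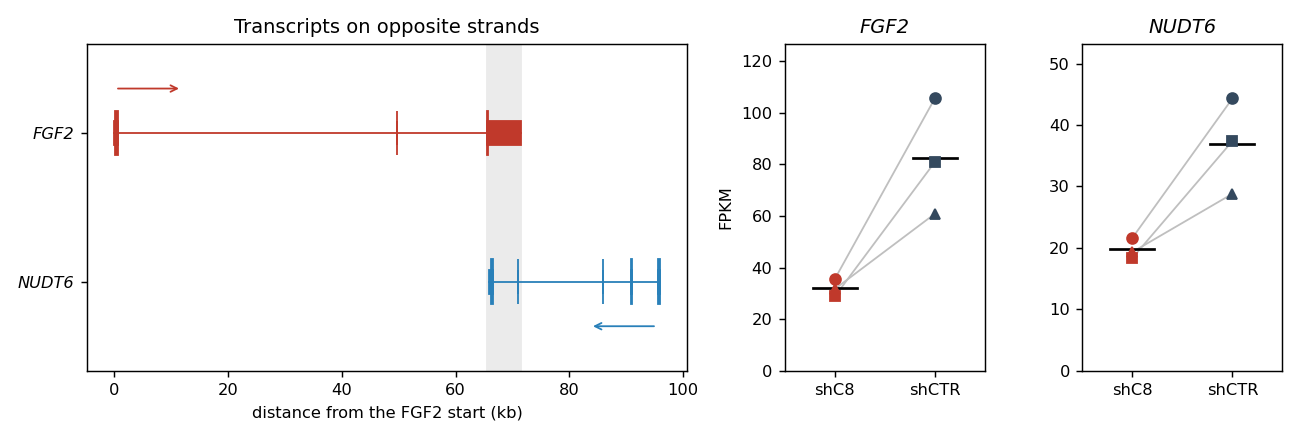
Left, exons (boxes, taller where coding) of FGF2-201 and NUDT6-201 against the distance from the FGF2 start in kb, with arrows for the direction of transcription and grey for the last FGF2 exon. Right, FPKM of both genes by library, drawn as points with group means (black bars), where the shC8 libraries of each gene lie below its shCTR libraries.

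The first annotated starts of the 2 genes are 96260 bases apart, so the genes have separate promoters. NUDT6-201 starts further inside its locus, at chr4:122922606, so the NUDT6 stretch below belongs to another annotated start. The stretches just before their first annotated starts are shown because the 2 genes moved together, and they are taken from RefSeq promoter windows of GRCh38.p14. Capitals mark the Sp1 motif GGGCGG on either strand, which was found 2 times in the FGF2 stretch (chr4:122826581-122826707, plus strand, 78.0% G or C) and 1 time in the NUDT6 stretch (chr4:122922969-122923218, minus strand, 55.6% G or C).
FGF2 upstream: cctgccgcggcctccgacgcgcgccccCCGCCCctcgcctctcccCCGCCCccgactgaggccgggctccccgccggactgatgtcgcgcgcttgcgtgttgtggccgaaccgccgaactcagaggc
NUDT6 upstream: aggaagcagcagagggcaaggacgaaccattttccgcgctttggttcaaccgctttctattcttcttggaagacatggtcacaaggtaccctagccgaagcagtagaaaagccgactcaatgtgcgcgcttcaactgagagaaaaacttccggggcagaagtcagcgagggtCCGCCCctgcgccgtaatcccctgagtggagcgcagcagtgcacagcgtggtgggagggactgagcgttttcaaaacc

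The full RefSeq windows are longer than these stretches, since they reach past the start, and hold 3 matches of GGGCGG for FGF2 and 1 and 0 for the 2 windows of NUDT6. Of all 35116 RefSeq promoter windows, each as long as those full windows, 45% hold it on either strand. Among the other members searched, a window of FGFR3 held 8 matches, of FGFR4 7, of FGFR2 5, of FGFRL1 4 and of FGF18 3. The remaining windows of FGFR4 and FGFR2 and those of FGF1 and FGF5 held 0 or 1, and that of FGF7 held 0. The motif was thus not particular to the 2 genes that moved together. The AP-1 motif TGANTCA (7.71% of windows, both strands) was found 2 times in 1 window of FGF1 and in no window of the other members searched or of NUDT6. The TATA motif TATAAA (11.5% of windows, both strands) was found 2 times in 1 window of FGF5 and in none of the others. A missing match says only that these letters are not in these windows.

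Without a block, no ligand gene other than FGF2 passed the test. FGF1, a ligand that binds all FGF receptors, stood at 5.32, 7.47 and 6.62 FPKM in shC8 1, 2 and 3, against 2.51, 4.88 and 4.58 FPKM in shCTR 1, 2 and 3. The groups did not overlap, although shC8 1 was only just above shCTR 2. The log2 change was 0.61 (SE 0.205, limma adjusted p = 0.0961), which did not pass, and 0.61 (SE 0.0938, limma adjusted p = 0.00847) with the replicate block. Without shCTR 1, the lowest library, the unblocked change was 0.37 (limma adjusted p = 0.159).

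FGF5, a ligand known from the hair growth cycle, stood at 4.05, 6.23 and 8.36 FPKM in shC8 1, 2 and 3, against 2.89, 4.12 and 4.81 FPKM in shCTR 1, 2 and 3. The groups overlapped, yet within each same-numbered pair the shC8 library was the higher one, by 1.40, 1.51 and 1.74 times. The log2 change was 0.52 (SE 0.236, limma adjusted p = 0.188), which did not pass, and the limma adjusted p was 0.00875 with the replicate block. Without shC8 3, the highest library, the unblocked change was 0.31 (limma adjusted p = 0.437).

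FGF7, the keratinocyte growth factor, stood at 1.31, 5.01 and 1.93 FPKM in shC8 1, 2 and 3, against 4.10, 14.4 and 4.78 FPKM in shCTR 1, 2 and 3. The libraries of replicate 2 were the highest of their group in both arms, and shC8 2 lay above shCTR 1 and shCTR 3. Each shC8 library held a like part of its same-numbered control, with FPKM ratios of 0.320, 0.348 and 0.404. The log2 change was -1.16 (SE 0.481, limma adjusted p = 0.156) without a block, which did not pass, and -1.16 (SE 0.0903, limma adjusted p = 0.0016) with it. Without shCTR 2, the highest library, the unblocked change was -0.66 (limma adjusted p = 0.32). FGF7 signals mainly through an FGFR2 splice form, and FGFR2 was hardly read in these cells. FGF18, a ligand of bone and cartilage growth, stood at 0.667, 0.615 and 1.08 FPKM in shC8 1, 2 and 3, against 0.670, 0.341 and 0.865 FPKM in shCTR 1, 2 and 3, so its groups overlapped.

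With the replicate block, 5 of the 6 tested members were called, FGF2 and FGF7 lower and FGF1, FGF5 and FGFRL1 higher in shC8. In that fit 26.6% of all tested genes were called, 16.1% higher and 10.6% lower. No label says that replicate numbers pair the libraries, and the pairing was taken from correlations in these same data. Calls made only with the block rest on that choice. Each deposited column name ends in a long number of unstated meaning, lower for shC8 1, shCTR 1 and shCTR 3 than for shC8 2, shC8 3 and shCTR 2. Within the set of lower and the set of upper numbers the log2 difference was -1.15 and -1.39 for FGF2, -1.23 and -1.87 for FGF7, 0.51 and 0.45 for FGF1, 0.09 and 0.68 for FGF5, and 0.20 and 0.42 for FGFRL1. Each sign was thus the same in both sets, and the FGF5 difference was small in the lower one. With the set as a term in the fit, FGF7 passed as well (-1.55, limma adjusted p = 0.0212).

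**Figure D3:**
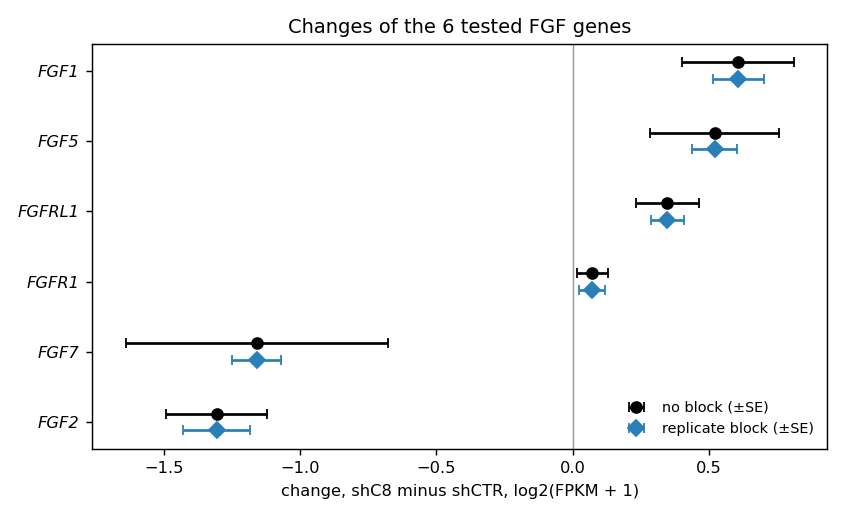
Change of the 6 tested FGF genes on the log2(FPKM + 1) scale, shC8 minus shCTR (x axis), without a block (black circles) and with the replicate number as a block (blue diamonds), with bars of 1 SE. The estimates are the same in both fits, and the SE of FGF7 is 0.481 without and 0.0903 with the block.

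The makeup of the ligand RNA is given without a test. Summed over the 5 ligand genes, FPKM was 46.9, 48.2 and 49.7 in shC8 1, 2 and 3, against 116, 105 and 75.9 in shCTR 1, 2 and 3, and the groups did not overlap. FGF2 made up 75.8%, 59.9% and 63.8% of that sum in shC8 1, 2 and 3, against 91.2%, 77.3% and 80.2% in shCTR 1, 2 and 3. The 4 other ligands together were at 16.2 ± 4.27 FPKM in shC8 and 16.3 ± 6.87 FPKM in shCTR (SD, n = 3 each), a difference within the spread. FGF1 and FGF5 each held a larger part of the sum in every shC8 library than in any shCTR library, at 13.4% ± 2.08 and 12.8% ± 4.10 in shC8 and at 4.29% ± 1.96 and 4.26% ± 1.94 in shCTR (SD, n = 3 each). These parts rest on FGF2 in the divisor, and the sums consist mostly of FGF2, so neither is a separate observation.

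**Figure D4:**
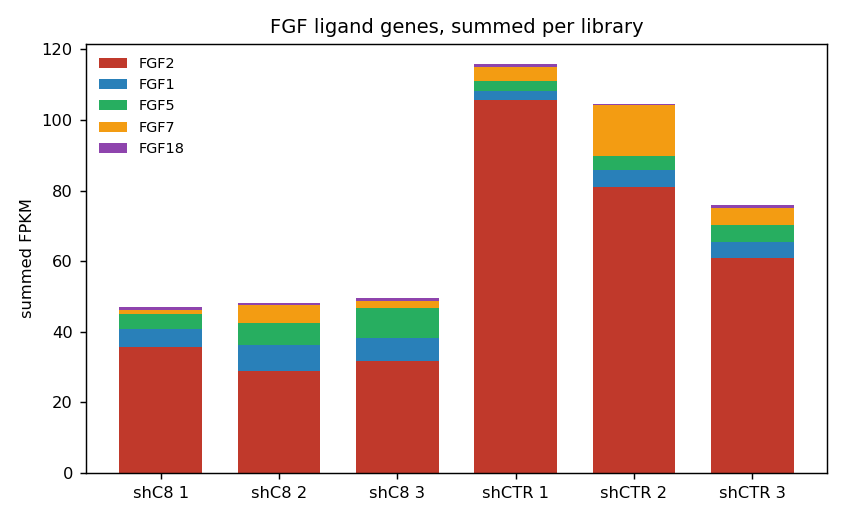
Summed FPKM of the 5 FGF ligand genes (y axis, stacked bars) in each shC8 and shCTR library. FGF2 is the largest block everywhere, and the sums are 46.9 to 49.7 in shC8 and 75.9 to 116 in shCTR.

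FGFR1 RNA lay in a narrow range in both groups. FGFR1 stood at 26.5, 26.6 and 25.6 FPKM in shC8 1, 2 and 3, against 25.6, 24.2 and 24.8 FPKM in shCTR 1, 2 and 3. The groups overlapped slightly. The log2 change was 0.07 (SE 0.0569, 95% interval -0.06 to 0.20, limma adjusted p = 0.436), and FGFR1 was not called in any of the 14 alternative fits, the replicate block included. FGFR1 is overlapped on the other strand by LETM2, a mitochondrial protein gene, with 138 shared exonic bases, which is 0.997% of the annotated FGFR1 exons. LETM2 stood at 2.73, 2.27 and 3.08 FPKM in shC8 and at 2.42, 2.47 and 2.69 FPKM in shCTR, with groups that overlapped. Other loci share exonic bases with a member but have no row under their symbol in the table: AC087623.1, with 156 bases opposite FGFR1, and CFAP299, with 136 bases on the strand of FGF5.

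The level of FGF2 relative to FGFR1 was 1.34, 1.09 and 1.24 in shC8 1, 2 and 3, against 4.12, 3.34 and 2.45 in shCTR 1, 2 and 3 (ratio of FPKM). FGF2 RNA thus exceeded FGFR1 RNA in every library, and by less in each shC8 library than in any shCTR library. As FGFR1 lay in a narrow range, this ratio follows FGF2 and is no separate observation. FGFR2 was listed at 0 except in shC8 2 (0.0173 FPKM) and shCTR 1 (0.0063 FPKM), and FGFR4 was listed at 0 except in shC8 3 (0.0218 FPKM). FGFR3 stood at 0.0535, 0.00738 and 0.0428 FPKM in shC8 and at 0.00873, 0 and 0.0468 FPKM in shCTR. FGFR1 made up at least 99.7% of the summed FPKM of the 4 kinase receptors in every library. At such values no comparison of the other 3 receptors can be made.

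FGFRL1, the receptor without a kinase domain, stood at 10.5, 11.0 and 13.8 FPKM in shC8 1, 2 and 3, against 8.14, 8.99 and 9.85 FPKM in shCTR 1, 2 and 3. The groups did not overlap. The log2 change of 0.35 (SE 0.114, limma adjusted p = 0.0886) did not pass, and it passed with the replicate block (SE 0.0608, limma adjusted p = 0.0125). Relative to FGFR1 it was at 0.450 ± 0.0783 in shC8 and 0.362 ± 0.0405 in shCTR (ratio of FPKM, SD, n = 3 each), with values that overlapped.

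Among the other 17 FGF genes that are not receptors, 2 passed the filter and none was called (limma, 0 at an adjusted p under 0.05, with and without the replicate block). FGF13 stood at 13.2, 15.1 and 22.7 FPKM in shC8 and at 11.1, 16.1 and 24.1 FPKM in shCTR. By mean level it came next after FGF2 in either group, receptors left aside. FGF14 averaged 3.55 ± 0.659 FPKM in shC8 and 3.66 ± 0.407 FPKM in shCTR (SD, n = 3 each). Both encode proteins that stay in the cell and bind sodium channels. FGF11 and FGF12, of the same intracellular group, were at 0.649 to 1.36 and 0.390 to 0.633 FPKM in shC8 and at 0.166 to 0.468 and 0.544 to 0.742 FPKM in shCTR. FGF11 did not overlap between groups at these low values. FGF20, a secreted ligand, was at 0.168 to 0.291 FPKM in shC8 and at 0.0995 to 0.287 FPKM in shCTR. Another 5 ligand genes were listed at 0 in every library, and the 7 remaining ones did not reach a mean of 0.1 FPKM.

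Several genes for the proteins that carry heparan sulfate changed. SDC2, the syndecan-2 gene, stood at 50.8, 66.3 and 66.0 FPKM in shC8 1, 2 and 3, against 19.4, 28.4 and 26.1 FPKM in shCTR 1, 2 and 3. The groups were far apart, and the log2 change was 1.28 (SE 0.157, limma adjusted p = 0.00465). GPC1, the glypican-1 gene, rose to 24.0 ± 1.15 FPKM in shC8, against 14.5 ± 1.86 FPKM in shCTR (SD, n = 3 each; limma adjusted p = 0.00633). HSPG2, the gene of the basement membrane protein perlecan, rose to 3.33 ± 0.782 FPKM in shC8, against 1.39 ± 0.211 FPKM in shCTR (limma adjusted p = 0.015). It was no longer called when shC8 2, shC8 3 or shCTR 1 was left out (limma adjusted p up to 0.058).

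CD44, the hyaluronan receptor gene, some of whose splice forms carry heparan sulfate, fell to 269 ± 21.7 FPKM in shC8, against 366 ± 3.60 FPKM in shCTR (SD, n = 3 each; limma adjusted p = 0.0131). SDC4, another syndecan gene, averaged 79.8 ± 5.65 FPKM in shC8 and 66.8 ± 6.78 FPKM in shCTR (limma adjusted p = 0.106, and 0.0128 with the replicate block), and NRP1, a co-receptor gene, 113 ± 3.10 FPKM in shC8 and 124 ± 6.88 FPKM in shCTR (limma adjusted p = 0.2). Of 19 carriers and co-receptors, 9 were tested, 3 rose, 1 fell and 5 did not pass, with 5 higher and 1 lower under the replicate block. Of all tested genes, 7.14% were called higher and 4.94% lower without the block, and 16.1% higher and 10.6% lower with it. The median log2 change was 0.26, against 0.04 over all tested genes. KL and GPC3 were listed at 0 in all 6 libraries, and KLB, the partner of the endocrine FGFs, was at no more than 0.260 FPKM.

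Of 17 genes for enzymes that build or trim heparan sulfate, 12 were tested, 5 rose, none fell and 7 did not pass. The shares over all tested genes were the same 7.14% higher and 4.94% lower. EXT1, the chain polymerase gene, rose to 56.7 ± 1.94 FPKM in shC8, against 43.6 ± 4.04 FPKM in shCTR (SD, n = 3 each; log2 change 0.38, limma adjusted p = 0.0265). EXTL3, whose product starts the chain, changed by 0.48, and the sulfotransferase genes HS6ST1, HS3ST3B1 and NDST1 by 0.57, 0.58 and 0.26 (limma adjusted p between 0.0146 and 0.044 for these 4). HS3ST3B1 was called in 6 of 13 alternatives and NDST1 in 4 of 14, against 12 of 13 for HS6ST1 and 12 of 14 for EXTL3. HS3ST3A1, at 40.7 ± 1.85 FPKM in shC8 and 46.9 ± 3.67 FPKM in shCTR, and EXTL2, at 27.8 ± 0.837 FPKM in shC8 and 24.9 ± 1.41 FPKM in shCTR, did not pass (SD, n = 3 each). The median was 0.20. With the block 6 were higher and 2 lower (NDST2 and HS3ST3A1), in a fit that called 16.1% of all tested genes higher and 10.6% lower. The count rested on single libraries: without shC8 2, shC8 3, shCTR 1, shCTR 2 or shCTR 3 the rises numbered 1, 0, 2, 3 and 3. With no filter on low values they numbered 3. A minimum mean of 5 FPKM left HS6ST1 and HS3ST3B1 untested, and the other 3 rises kept their call.

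Genes for adaptors and kinases below the receptors were called higher about as often as all tested genes. Of 28 tested genes, 2 rose, none fell and 26 did not pass, where 7.14% of all tested genes were called higher and 4.94% lower, with a median of 0.04, the value over all tested genes. STAT3, a transcription factor that receptor kinases can activate, rose to 32.1 ± 2.06 FPKM in shC8, against 21.0 ± 1.66 FPKM in shCTR (SD, n = 3 each; log2 change 0.59, limma adjusted p = 0.00627). PIK3R1, which encodes the regulatory subunit of PI3 kinase, averaged 14.3 ± 1.78 FPKM in shC8 and 9.87 ± 1.58 FPKM in shCTR (limma adjusted p = 0.0464), a call that 9 of 14 alternatives did not keep. NRAS was at 121 ± 5.59 FPKM in shC8 and 103 ± 3.02 FPKM in shCTR (limma adjusted p = 0.0508, and 0.0202 with the replicate block). The phosphatase gene PTPN11 was at 90.6 ± 6.53 FPKM in shC8 and 103 ± 6.02 FPKM in shCTR (limma adjusted p = 0.17). Under the replicate block 6 genes of this list were higher and 1 was lower (PTPN11, limma adjusted p = 0.0317), in a fit that called 16.1% of all tested genes higher and 10.6% lower.

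Genes listed as feedback inhibitors or as ERK-responsive were lower where they passed. Like the other lists, this one was chosen with earlier results of these data known, so its counts are no independent support. Of 23 listed, 19 were tested, 7 fell, none rose and 12 did not pass, with 12 falls under the replicate block and 4 without shCTR 2. Of all tested genes, 4.94% were called lower without the block and 10.6% with it. The median log2 change was -0.34. DUSP6, the ERK phosphatase gene, stood at 36.2, 40.8 and 29.1 FPKM in shC8 1, 2 and 3, against 77.2, 90.8 and 61.8 FPKM in shCTR 1, 2 and 3. Any link of this fall to FGF2 was not tested. On the log2 scale HMGA2, a chromatin protein gene, changed by -0.82, CCND1, a cyclin gene, by -0.71, FOSL1, which encodes an AP-1 subunit, by -0.67 and DUSP4, a phosphatase gene, by -0.66 (limma adjusted p between 0.00266 and 0.0187). Without shCTR 2 the DUSP4 call was lost (limma adjusted p = 0.0564).

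The other 2 falls on that list, named after their values were seen, were the inhibitor gene SPRED2 (-0.50, limma adjusted p = 0.0344) and the FGF-responsive factor gene ETV5 (-0.27, limma adjusted p = 0.0486), called in 7 and 6 of 14 alternatives. SPRY2, a feedback inhibitor gene, was at 147 ± 7.22 FPKM in shC8 and 150 ± 22.2 FPKM in shCTR (SD, n = 3 each; limma adjusted p = 0.906). IER3, an immediate early gene, was at 167 ± 33.0 FPKM in shC8 and 251 ± 84.7 FPKM in shCTR (limma adjusted p = 0.229, 0.0136 with the replicate block and 0.0352 without shCTR 3).

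**Figure D5:**
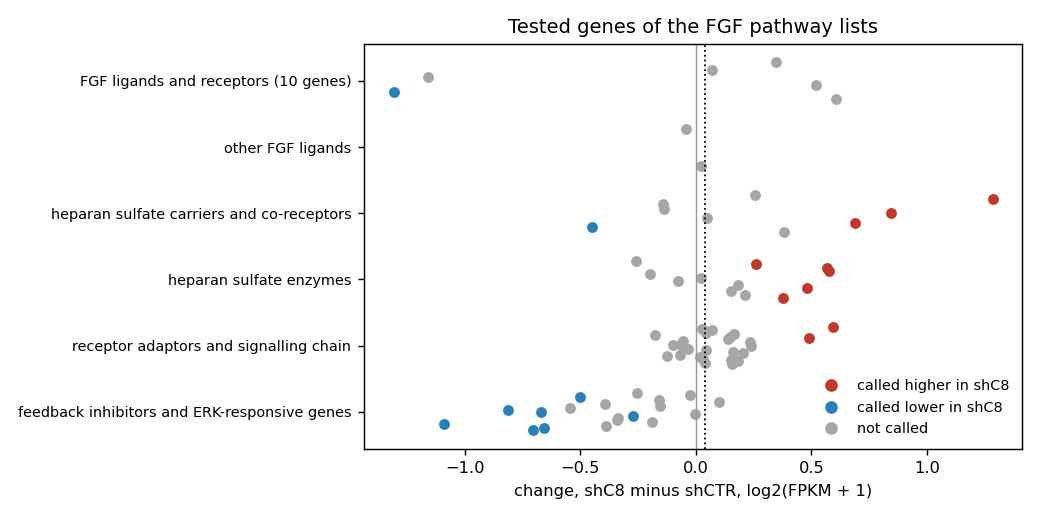
Change on the log2(FPKM + 1) scale, shC8 minus shCTR (x axis), of each tested gene of the 6 lists (rows), coloured where limma called it higher or lower in shC8. The dotted line is the median of all tested genes at 0.04, and the ERK-responsive row has 7 called genes, all to its left.

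The genes whose profile over the 6 libraries was nearest to that of FGF2 were found by the root mean square distance between log2(FPKM + 1) values, each gene centred on its own mean. IL13RA2, a decoy receptor gene for a cytokine, was nearest at 0.146, followed by the lipid-binding protein gene PLEKHA3 (0.167), the fatty acid elongase gene ELOVL7 (0.176), CTNNBL1 (0.188) and the interleukin receptor antagonist gene IL1RN (0.195), while the FGF2 profile itself deviated by 0.697 from its own mean. IL13RA2 stood at 31.1, 28.8 and 26.4 FPKM in shC8 1, 2 and 3, against 82.2, 74.0 and 64.2 FPKM in shCTR 1, 2 and 3. These 5 fell in shC8 (log2 changes of -1.44 to -1.14, limma adjusted p up to 0.00778), which their choice by likeness to FGF2 largely implies.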

How the data were processed

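RNA of 6 U87 libraries, 3 shC8 and 3 shCTR, was sequenced from DNase-treated total RNA after ribosomal depletion with a stranded kit, per the labels' protocols. The authors deposited FPKM per gene symbol and library. The submitters' processing notes name TopHat, Cufflinks and Cuffdiff, with no versions or roles, and hg38, and the annotation was not given in the sources used here. A large change of an abundant gene shifts FPKM of all others, and values listed at 0 can be failed estimates. No count test was run on FPKM.

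Tests covered the 11598 of 23290 genes whose mean over the 6 libraries reached 1 FPKM, on log2(FPKM + 1) with limma 3.58.1 in R 4.3.3 (moderated, trend with mean level, two-sided, Benjamini-Hochberg adjusted over all genes tested, called under 0.05). This scale understates changes of low genes, and "-fold" is a ratio of mean FPKM. The script was tested on simulated data. Members and lists were chosen with earlier results of these data known. Named genes were all members, the 5 largest called and 2 highest uncalled genes per list, other ligands with a mean of at least 0.1 FPKM, genes overlapping a member and the 5 nearest profiles to FGF2. Any other gene was named after its values were seen.

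The correlation over genes of the deviations from the group mean was 0.397, 0.266 and 0.291 for libraries 1, 2 and 3 of both groups, so replicate numbers were taken to pair the samples. This rests on the data, since no label says so. The fit without a block is the main one. Loci and transcripts are GENCODE 29 (GRCh38, the assembly called hg38) and promoters RefSeq (GRCh38.p14). Python 3.11.15 was used for sequences and figures.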

Additional observations from a re-analysis of the deposited data

How the results depend on the processing

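Over the 14 alternatives, FGF2 kept its direction and its call in each (-1.51 to -1.11, limma adjusted p up to 0.0332), as did CASP8 (-1.68 to -1.48), and FGFR1 was called in none (0.02 to 0.09). Without 1 library, FGF1 lay between 0.37 and 0.74, FGF5 between 0.31 and 0.76, FGF7 between -1.56 and -0.66 and FGFRL1 between 0.24 and 0.42, and none of these 4 passed (limma adjusted p of at least 0.0541). The replicate block left their changes at 0.61, 0.52, -1.16 and 0.35 and called each, and FGF7 also passed with the set of column numbers as a term (-1.55), which put the members called lower at 2. The cause was not tested.

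Among all tested genes the replicate block called 1862 higher and 1224 lower in shC8, and counts became 3 higher and 2 lower for the members, 5 higher for heparan sulfate carriers, 2 lower for heparan sulfate enzymes, 6 higher and 1 lower for the signalling chain and 12 lower for ERK-responsive genes. The block changed the call of no gene called without it that is named here. Heparan sulfate enzymes had 3 higher with no filter and 1 lower under quantile normalization. They also had 3 higher with a minimum mean of 5 FPKM, which left HS6ST1 and HS3ST3B1 untested. The signalling chain had 1 higher with no filter, with median-of-ratios scaling and without a trend. Leaving out 1 library gave between 283 and 711 genes called higher and between 239 and 665 lower, and 0 to 4 enzymes higher, 1 to 2 signalling genes higher and 4 to 7 ERK-responsive genes lower. The split of all calls was 715 higher and 731 lower with quantile normalization, 621 higher and 820 lower with median-of-ratios scaling, and 828 higher and 573 lower as reported; these scalings put the median change of all genes at 0.004 and -0.00752, against 0.0376.

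The sign of uncalled genes near 0 changed. FGF13 was at 0.02 as reported, at -0.00348 under quantile normalization, -0.0269 under median-of-ratios scaling, -0.0513 with the column number term and between -0.24 and 0.29 without 1 library. LETM2 was at -0.0197 under quantile normalization and between -0.0151 and 0.144 without 1 library, FGF14 between -0.157 and 0.0237 and SPRY2 between -0.150 and 0.0601. Depth was unknown, so levels of FGFR2, FGFR3 and FGFR4 have no counting interval.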

Other observations

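The word GGACAAA, known from earlier work on these data, was counted in 3' UTRs, the longest one per gene in GENCODE 29. It was found in 33.8% of 521 searched genes called lower in shC8, in 8.68% of 749 called higher and in 13.2% of 8869 not called. As the word was known from these same data, these shares are no separate observation. Median 3' UTR lengths of these 3 groups also differed, at 2024, 1553 and 1671 bases, and the part of length in these shares was not tested. The 3' UTRs of FGF2 (5840 bases), FGF7 (4271 bases), FGF5 (4676 bases), FGFRL1 (1550 bases) and NUDT6 (1295 bases) hold no copy, and those of FGF1 (3112 bases) and FGFR1 (4008 bases) hold 1 each. Of the 5 genes nearest to FGF2 in profile, PLEKHA3, ELOVL7 and CTNNBL1 hold 1 copy each. This is a description of letters in annotated transcripts.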
